A study of Homo sapiens with 18 samples.

Results

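The first 70 Mb of chromosome 1 (chr1:1-70000000, hg19) cover most of the short arm, 1p, a chromosome arm that is often lost in neuroblastoma. All peaks called there were taken by position alone, which gave 19247 of the 781454 peaks of the 18 libraries (2.46%). Peaks are stretches where the transposase of an ATAC-seq library cut the DNA more often than around them, and so mark open chromatin. Kelly and BE2C are human neuroblastoma cell lines, in a study titled for the role of the aryl hydrocarbon receptor (AHR) in MYCN-amplified neuroblastoma. Each line had been transduced with lentivirus carrying the empty vector pLKO, or 1 of 2 short hairpin RNAs against AHR (shAhR-1 and shAhR-2), and each of these 6 groups had 3 libraries. The hairpin libraries therefore carry the virus as the pLKO libraries do, and no untransduced cells entered the comparison. Peak lists do not hold AHR expression, so the knockdown itself could not be checked here.

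The distal short arm is known for genes proposed as tumour suppressors of neuroblastoma. Among them are CHD5, a chromatin remodeller of neurons, CAMTA1, a calmodulin-binding transcription activator, KIF1B, a kinesin motor, CASZ1, a zinc-finger factor of neural differentiation, and ARID1A, a subunit of the SWI/SNF remodelling complex. Fewer copies of an arm give fewer fragments from it, and closed chromatin gives fewer cuts per copy. Copy number was not measured in these files, so fewer copies of the arm and less open chromatin per copy cannot be told apart in any value below. Regions are given by position in hg19 and are not tied to a gene, because no annotation of that build was used.

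The length of the peak lists varied widely and decides how values on the arm must be read. A library had between 9204 and 81637 peaks on chromosomes 1 to 22 and X, and the 6 shAhR-2 libraries had the longest lists of their lines. The shortest list was that of Kelly shAhR-1 replicate 1. The arm is therefore read in 2 ways, side by side: its share among the strongest 9204 peaks of each library, ranked by the authors' p-value, and its share of the full list. The strongest 9204 peaks were 100% of the list of Kelly shAhR-1 replicate 1 but between 11.3% and 12.1% of those of BE2C shAhR-2. The labels do not say that the replicates were separate cultures, so p-values cover only how far single libraries lay apart, for technical or other reasons.

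Among the strongest 9204 peaks, the arm held a larger share in Kelly than in BE2C, and in BE2C it held the smallest share in the shAhR-2 libraries. In Kelly the share was 2.63%, 3.06% and 2.68% in the pLKO libraries, 2.52%, 2.64% and 2.54% with shAhR-1, and 2.59%, 1.78% and 2.36% with shAhR-2. In BE2C it was 1.79%, 1.73% and 1.61% with pLKO, 1.5%, 1.64% and 1.91% with shAhR-1, and 0.565%, 0.565% and 0.522% with shAhR-2. Kelly and BE2C did not overlap in the pLKO and shAhR-1 libraries, with every Kelly value above every BE2C value. With shAhR-2 they did not overlap either, and the BE2C values were the lowest of all 18. The 3 BE2C shAhR-2 libraries had 52, 52 and 48 of their 9204 strongest peaks on the arm. The share was 2.16-fold higher in Kelly than in BE2C (log2 ratio 1.11, n = 9 libraries a line, exact permutation test within conditions, two-sided, p = 0.00025, adjusted p = 0.001 over 4 comparisons). By condition, the ratio of Kelly to BE2C was 1.63 under pLKO, 1.53 under shAhR-1 and 4.03 under shAhR-2, with n = 3 in each group, where an exact test cannot go below p = 0.1. Over the pLKO and shAhR-1 libraries alone the log2 ratio was 0.66 (exact permutation test, p = 0.005). That was the only comparison in this setting, so its p is not adjusted, and it is the smallest the test can give there.

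**Figure D1:**
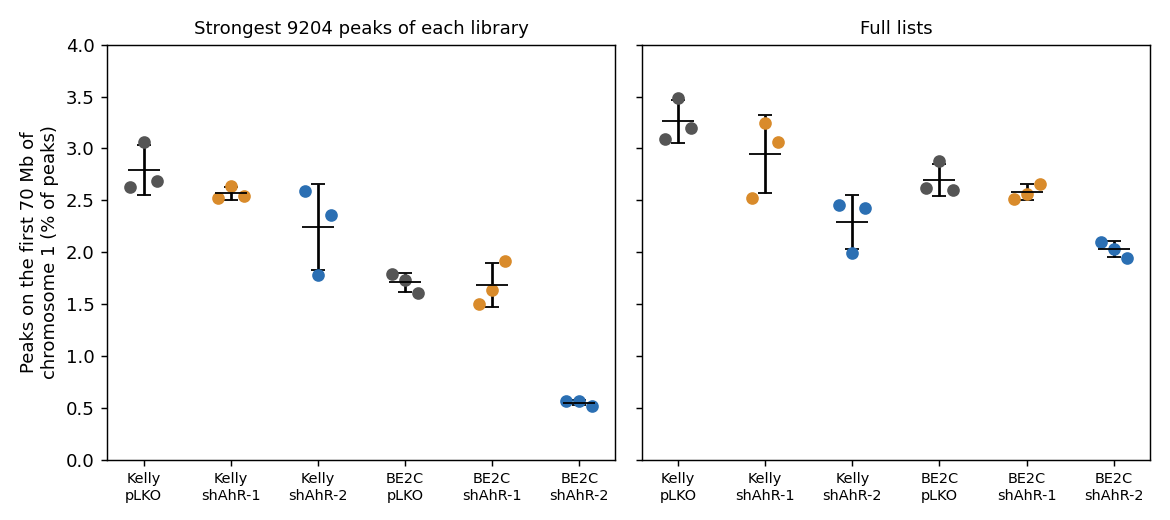
Share of peaks on the first 70 Mb of chromosome 1 (y axis, percent) in the 6 groups, among the strongest 9204 peaks of each library (left) and in the full lists (right). Points are libraries, and the horizontal line and bar give the mean and SD of 3 libraries; the BE2C shAhR-2 libraries lie between 0.522% and 0.565% on the left and between 1.95% and 2.1% on the right.

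The second hairpin went with a smaller share of the arm, and the first did not pass the test. With shAhR-2 the share was 0.506 times that with pLKO over both lines (log2 ratio -0.98, exact permutation test within lines, two-sided, p = 0.005, adjusted p = 0.01), where p = 0.005 is the smallest the test can give. In BE2C it fell to 0.322 times the pLKO value, and the 3 shAhR-2 libraries lay below all 6 others of the line. In Kelly the ratio was 0.795, and shAhR-2 replicate 1 (2.59%) was close to the lowest pLKO library. A test of whether this change differed between Kelly and BE2C gave p = 0.1 (exact permutation test, adjusted p = 0.15 over 3 such tests). It cannot decide that question, because labels were exchanged within each line and the change with the hairpin in each line itself widens its spread. The same holds for the exact permutation tests of a difference between lines given below. Against the other hairpin, the share with shAhR-2 was 0.532 times as high (log2 ratio -0.91, exact permutation test, adjusted p = 0.02). Between shAhR-1 and pLKO the log2 ratio was -0.07 (exact permutation test, p = 0.295), and without BE2C shAhR-1 replicate 3 it was -0.12 (adjusted p = 0.04, exact).

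These sizes depended on the list length. In the full lists the Kelly pLKO libraries had 1078, 697 and 961 peaks on the arm, or 3.09%, 3.49% and 3.20% of their lists, and the BE2C pLKO libraries had 899, 1050 and 1152, or 2.62%, 2.87% and 2.59%. With shAhR-1 there were 232, 793 and 729 peaks in Kelly (2.52%, 3.25% and 3.06%) and 1130, 696 and 683 in BE2C (2.51%, 2.56% and 2.66%). With shAhR-2 there were 1591, 1203 and 1594 in Kelly (2.45%, 1.99% and 2.42%) and 1593, 1576 and 1590 in BE2C (2.1%, 2.03% and 1.95%). The shAhR-2 libraries thus had more peaks on the arm than any other library of their line, and the smallest shares in both lines. Over full lists Kelly was 1.16-fold above BE2C (log2 ratio 0.21, exact permutation test, adjusted p = 0.00667), and shAhR-2 was 0.726 times pLKO (log2 ratio -0.46, exact permutation test, adjusted p = 0.00667). The ratio of shAhR-2 to pLKO was then 0.70 in Kelly and 0.752 in BE2C (difference between lines, exact permutation test, p = 0.765). The matched length was set by Kelly shAhR-1 replicate 1 alone: without that library the log2 ratio of Kelly to BE2C was 0.48, that of shAhR-2 to pLKO -0.44 and that of shAhR-2 to shAhR-1 -0.40, each still past the threshold.

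When peaks were taken in order of strength, the arm held a smaller share of the strongest 5000 than of the strongest 20000 in every library with a list that long. In Kelly pLKO replicate 1 the arm held 1.40% of the 1000 strongest peaks, 1.8% of the strongest 5000 and 3.09% of the whole list. In the BE2C pLKO libraries the share went from between 0.90% and 1.00% of the strongest 1000 to between 1.04% and 1.12% of the strongest 5000 and between 2.41% and 2.67% of the strongest 20000. In BE2C shAhR-2 it was 0.36%, 0.34% and 0.38% of the strongest 5000 peaks, and 1.65%, 1.66% and 1.59% of the strongest 20000. Further down the list the share was smaller again in Kelly shAhR-2, going from 2.92%, 2.44% and 2.91% of the strongest 20000 to 2.45%, 1.99% and 2.42% of the full lists. Counted from the strongest peak, the median rank of the arm lay 42.1% ± 0.2 (SD, n = 3) of the way down the list in Kelly shAhR-2 and 47.7% ± 1.6 in BE2C shAhR-2, so its peaks there were somewhat ahead of the middle. It lay at 51.3% ± 3.7 in Kelly pLKO, 55.5% ± 1.9 in Kelly shAhR-1, 53.6% ± 1.1 in BE2C pLKO and 55.0% ± 3.8 in BE2C shAhR-1. At 20000 peaks the 3 BE2C shAhR-2 libraries were below every other library with a list that long.

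**Figure D2:**
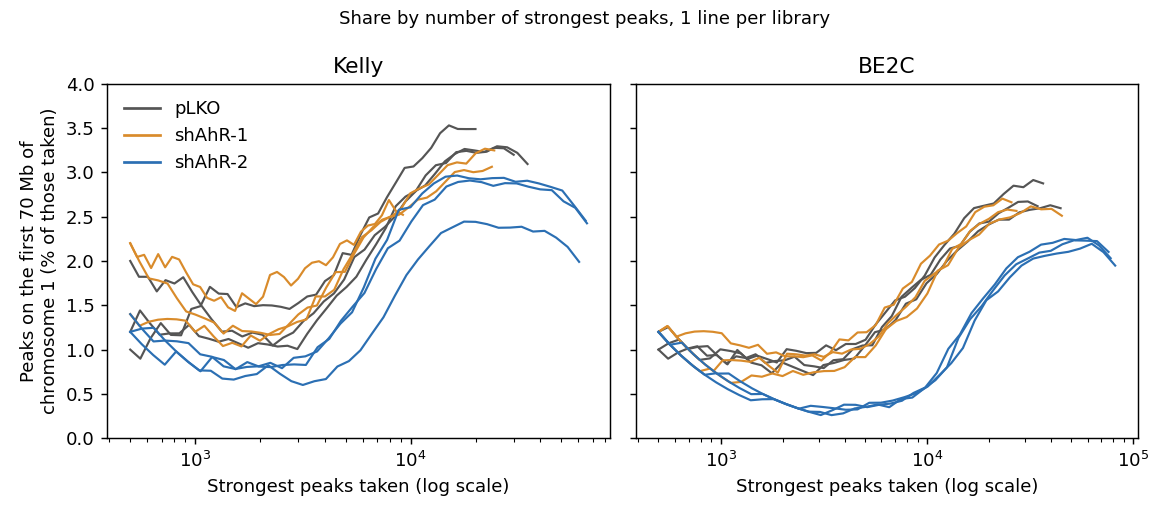
Share of peaks on the first 70 Mb of chromosome 1 (y axis, percent) among the strongest peaks of each library, against the number of peaks taken (x axis, log scale), for Kelly (left) and BE2C (right). Each line is 1 library, coloured by condition; all lines end above their level at 5000 peaks, and the 3 BE2C shAhR-2 lines rise last, from 0.34% to 0.38% at 5000 peaks.

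The step of 5 Mb shows where on the arm the groups differed. Kelly had the larger share of strongest peaks in 13 of the 14 windows (limma, adjusted p below 0.05 over 547 windows of the genome), while 32.2% of all windows were higher in Kelly by the same rule and 65.1% differed in either direction. By condition, 9 windows were higher in Kelly under pLKO (genome 20.1%), 7 under shAhR-1 (genome 26.3%) and 12 under shAhR-2 (genome 22.7%). Averaged over the conditions, the widest difference was in the window from 25 to 30 Mb, with a log2 ratio of 2.29 ± 0.20 (SE), made up of 1.54 ± 0.34 under pLKO, 1.19 ± 0.34 under shAhR-1 and 4.15 ± 0.34 under shAhR-2. The last of these rests on counts of 0 in BE2C, and under shAhR-1 the window from 50 to 55 Mb was wider apart (1.42 ± 0.19). From 25 to 30 Mb the Kelly pLKO libraries had 20, 27 and 22 strong peaks and the BE2C pLKO libraries 9, 10 and 4. The window from 55 to 60 Mb was the exception (log2 ratio -0.05 ± 0.09, limma adjusted p = 0.608), with 8, 9 and 8 peaks in Kelly pLKO and 9, 10 and 10 in BE2C pLKO. In the full lists 8 of the 14 windows were higher in Kelly (genome 34.2%) and 1 was lower (genome 33.2%), so that count was much nearer to the background. The lower one was the window from 60 to 65 Mb (log2 ratio -0.26, limma adjusted p = 0.0147), whose direction was the opposite among the strongest peaks (0.67 ± 0.15).

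With shAhR-2 the arm thinned out among the strongest peaks of BE2C in every window up to 60 Mb. Over both lines 12 of 14 windows had a smaller share than with pLKO (limma, genome 15.2% lower), and 12 of 14 against shAhR-1 (genome 14.6%), and 12 of 14 differed from pLKO when BE2C was tested alone (genome 33.1% in either direction). Taken in BE2C, the log2 ratio was -3.31 ± 0.21 from 35 to 40 Mb, -3.20 ± 0.27 from 5 to 10 Mb and -3.03 ± 0.34 from 25 to 30 Mb. In the windows from 20 to 25, 25 to 30 and 35 to 40 Mb all 3 BE2C shAhR-2 libraries had 0 strong peaks, against 9, 5 and 5 peaks, 9, 10 and 4 peaks, and 11, 8 and 8 peaks in the pLKO libraries. These ratios therefore depend on the 1 peak added to each count before the logarithm. From 5 to 50 Mb, a stretch picked from these counts, the BE2C shAhR-2 libraries had 11, 12 and 8 strong peaks in all, and the BE2C pLKO libraries 94, 92 and 76. In the same stretch of the full lists they had 1055, 1044 and 1046 peaks, and the pLKO libraries 602, 705 and 769. The stretch was not without peaks in BE2C shAhR-2, but hardly any of them ranked among the strongest.

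The proximal end of the interval did not follow. From 65 to 70 Mb the BE2C shAhR-2 libraries had 15, 14 and 16 strong peaks against 13, 12 and 13 with pLKO (log2 ratio 0.23 ± 0.11, limma adjusted p = 0.121). From 60 to 65 Mb they had 4, 6 and 5 against 9, 5 and 9 (log2 ratio -0.50 ± 0.26, limma adjusted p = 0.141). In Kelly only the window from 65 to 70 Mb passed the test for shAhR-2 against pLKO (1 of 14, genome 14.4%), with 16, 18 and 14 peaks against 18, 24 and 20 (log2 ratio -0.35 ± 0.11, limma adjusted p = 0.0445). The interaction of hairpin and line passed in 11 of 14 windows for shAhR-2 against pLKO (limma, genome 14.6%) and in 12 against shAhR-1 (genome 28.2%). Over the full lists it passed in 0 of 14 windows (genome 6.9%), none with an unadjusted p below 0.05, while 13 of 14 windows had a smaller share with shAhR-2 over both lines (genome 29.3% lower). The same shAhR-2 contrast in the full lists was past the threshold, with a smaller share, in 11 windows in Kelly (genome 28.6%) and 10 in BE2C (genome 15.8%). For shAhR-1 against pLKO 1 of 14 windows differed (limma, genome 14.1%), from 60 to 65 Mb (log2 ratio -0.67 ± 0.18, adjusted p = 0.0263). Its counts were 7, 7 and 8 against 10, 12 and 13 in Kelly and 5, 6 and 2 against 9, 5 and 9 in BE2C. With single libraries left out this count was between 0 and 2.

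**Figure D3:**
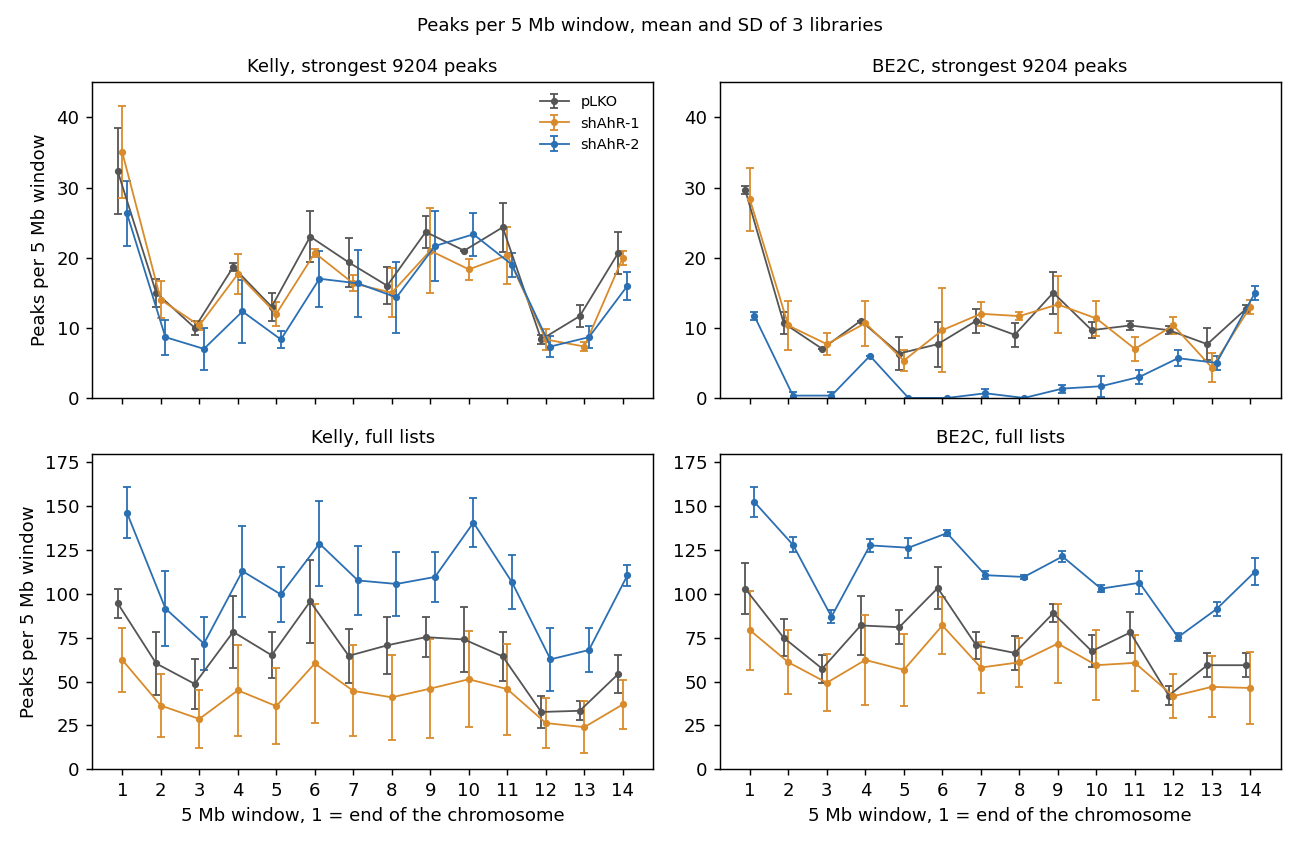
Peaks per 5 Mb window (y axis) along the first 70 Mb of chromosome 1 (x axis, window number from the end of the chromosome), among the strongest 9204 peaks (top) and in the full lists (bottom), for Kelly (left) and BE2C (right). Points and bars are means and SD of 3 libraries; in the top right panel the BE2C shAhR-2 line stays near 0 from window 2 to window 10 except in window 4, where all 3 libraries had 6 peaks.

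The strong peaks found in all 3 BE2C shAhR-2 libraries lay mostly beyond 50 Mb. Drawn from the same lists, they repeat the window counts above and are not a separate result. Of 498 regions on the arm, made by merging the strongest peaks of the 18 libraries, 431 had no strong peak in any BE2C shAhR-2 library (86.5%, genome 46.1%), and 34 had one in all 3 (6.83%, genome 38.7%). Of the 34, 28 had one in all 3 BE2C pLKO libraries too, and 4 had one in no BE2C pLKO library. Of these 34, 7 lay in the first 5 Mb, all within chr1:10004-1625207. From there to 50 Mb all 6 lay in 1 stretch, chr1:16839527-17232089. The other 21 lay beyond 50 Mb, with 11 of them from 65 to 70 Mb. How many of all 498 regions lay beyond 50 Mb was not counted. The first region, chr1:10004-10688, abuts the end of the assembled chromosome, and 3 regions between 564483 and 570257 lie where hg19 holds a known nuclear copy of mitochondrial DNA. The stretch near 17 Mb is known for segmental duplications, and whether reads from near-identical copies were placed at these sites was not tested. The regions named here should be read as uncertain in position for that reason.

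Regions shared by all libraries were scarcer on the arm among the strongest peaks than over the genome, and as frequent in the full lists. Of the 498 regions, 20 (4.02%) had a strong peak in all 18 libraries, against 15% of the 19922 regions of the genome. Without shortening, 155 (31.1%) had a peak in all 18, against 31.6%. Each of the 20 is by definition among the 34 regions with a strong peak in all 3 BE2C shAhR-2 libraries. Their low number therefore follows in part from that count and is not a separate result. Of the 20, the 5 with the highest minimum fold included chr1:59761988-59763080, away from those repeats. Its fold over the local background, the authors' own value for each peak, was 15.5, 12.4 and 13.1 in Kelly pLKO, 9.40, 12 and 9.98 with shAhR-1, and 9.09, 10.9 and 11.2 with shAhR-2. In BE2C it was 11.8, 13.1 and 13.8 with pLKO, 10.3, 9.58 and 13.2 with shAhR-1, and 9.65, 10.1 and 9.62 with shAhR-2. In Kelly every pLKO library was above every hairpin library, and in BE2C every pLKO library was above every shAhR-2 library, while shAhR-1 overlapped with pLKO. The median fold of the whole list moved in the same order, and the folds are not corrected for it. In Kelly that median was 6.22 ± 0.86 (SD, n = 3) with pLKO, 5.63 ± 0.14 with shAhR-1 and 4.83 ± 0.12 with shAhR-2. In BE2C it was 6.07 ± 0.31, 5.73 ± 0.49 and 4.83 ± 0.40. The other regions of the 5 were chr1:10004-10688, with folds from 9.30 to 17.7, and 3 regions of the stretch near 17 Mb, chr1:16992483-16993999, chr1:17230821-17232089 and chr1:16839527-16841218.

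The depth under the peaks on the arm was low, measured at the same regions in every library. The pileup, the number of fragments stacked at a peak's summit, was recovered from the authors' fold and p-value. That p-value also ranks the peaks, so the pileup is not a separate observation from the share among the strongest. It was measured at 6219 regions that had a peak in all 18 full lists, 151 of them on the arm. Relative to the median over all these regions, the arm was at -0.40, -0.18 and -0.44 (log2) in Kelly pLKO, -0.14, -0.24 and -0.27 with shAhR-1, and -0.41, -0.64 and -0.46 with shAhR-2. In BE2C it was at -0.48, -0.58 and -0.68 with pLKO, -0.60, -0.54 and -0.42 with shAhR-1, and -1.11, -1.08 and -1.11 with shAhR-2. All 18 libraries were below their own genome median, and the 3 BE2C shAhR-2 libraries lay far below the rest. Kelly was higher than BE2C by 0.38 on the log2 scale (exact permutation test, two-sided, p = 0.00025, adjusted p = 0.001). The value was lower with shAhR-2 than with pLKO by a log2 difference of -0.34 (exact permutation test, adjusted p = 0.0133) and than with shAhR-1 by -0.44 (adjusted p = 0.01, exact). The log2 difference of shAhR-2 from pLKO was -0.16 in Kelly and -0.52 in BE2C (difference between lines, exact permutation test, p = 0.18). Between shAhR-1 and pLKO the log2 difference was 0.09 (exact permutation test, p = 0.145), and without Kelly pLKO replicate 2 it was 0.13 (adjusted p = 0.04, exact).

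The low depth reached along most of the arm. In the window from 25 to 30 Mb the relative pileup was -0.76 ± 0.09 (SD, n = 3) in Kelly pLKO, -1.07 ± 0.21 in BE2C pLKO and -1.46 ± 0.05 in BE2C shAhR-2. From 55 to 60 Mb it was 0.18 ± 0.05, -0.20 ± 0.09 and -0.52 ± 0.18 in the same groups, over 5 regions. From 65 to 70 Mb it was -0.26 ± 0.03, -0.07 ± 0.18 and -0.24 ± 0.12, so these 3 groups lay closer together there. The means of the shAhR-1 libraries were higher, at 0.17 ± 0.16 in Kelly and 0.05 ± 0.17 in BE2C. Of the 9 windows with at least 10 such regions, 8 were higher in Kelly (limma, genome 37.7%), with log2 differences from 0.18 ± 0.07 in the first 5 Mb to 0.55 ± 0.04 from 45 to 50 Mb. The window from 65 to 70 Mb was the exception (-0.04 ± 0.06, limma adjusted p = 0.544). Without Kelly shAhR-1 replicate 1 more regions could be measured, and 13 of 14 windows were higher in Kelly. With shAhR-2, 7 of the 9 were lower than with pLKO (limma, genome 19.7% lower), with log2 differences from -0.43 ± 0.07 from 5 to 10 Mb to -0.27 ± 0.05 from 45 to 50 Mb. Against shAhR-1 all 9 were lower with shAhR-2 (limma, genome 25.3% lower). With shAhR-1, 2 of the 9 were higher than with pLKO (limma, genome 4.67%), from 15 to 20 Mb (0.27 ± 0.07, adjusted p = 0.0274) and from 65 to 70 Mb (0.27 ± 0.07, adjusted p = 0.0224). The interaction with the line passed in 0 of 9 windows for shAhR-2 against pLKO (limma, genome 8.33%), where 2 windows had an unadjusted p below 0.05, and in 1 of 9 against shAhR-1 (genome 11.7%).

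**Figure D4:**
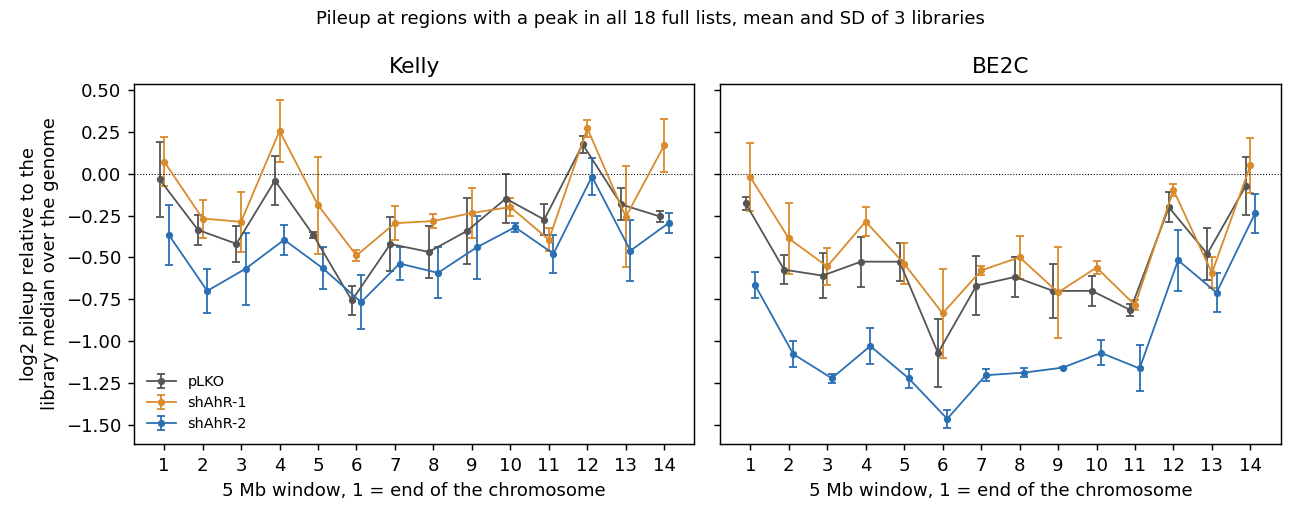
Relative pileup (y axis, log2 of the depth at the summit relative to the library's median over the genome) per 5 Mb window (x axis, numbered from the end of the chromosome) in Kelly (left) and BE2C (right), at regions with a peak in all 18 full lists. Points and bars are means and SD of 3 libraries, and the dotted line is the genome median; BE2C shAhR-2 lies at -1.46 in window 6 and at -0.24 in window 14.

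The local background moved with the pileup, and the fold of the peaks hardly did. The background is fixed once the pileup and the fold are known, so its values are not a separate observation. At the same 151 regions the relative local background was -0.30 ± 0.17 (log2, SD, n = 3) in Kelly pLKO, -0.13 ± 0.02 with shAhR-1 and -0.46 ± 0.10 with shAhR-2. In BE2C it was -0.49 ± 0.13, -0.44 ± 0.13 and -1.0 ± 0.01 in the same order. The relative fold was between -0.23 and -0.03 in all 18 libraries, with -0.09 ± 0.01 in BE2C shAhR-2. Peaks on the arm thus stood nearly as high over their surroundings as peaks elsewhere, on surroundings with less depth, and no test was run on these values. Over all peaks of the full lists, the median fold on the arm was between 0.95 and 1.11 times the median of the list. In the shAhR-2 libraries of both lines this ratio was between 1.05 and 1.11, and in the other 12 between 0.95 and 1.03.

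Chromosomes 19 and 22 also held a smaller share of the strongest peaks with shAhR-2 in BE2C. In Kelly chromosome 19 held a larger one. Among the strongest 9204 peaks, chromosome 22 held 0.800% ± 0.017 (SD, n = 3) in BE2C pLKO, 0.891% ± 0.171 with shAhR-1 and 0.174% ± 0.011 with shAhR-2. Chromosome 19 held 4.10% ± 0.03, 4.52% ± 0.25 and 2.29% ± 0.05 in the same groups. In Kelly, chromosome 19 held 3.44% ± 0.27 with pLKO and 4.48% ± 0.33 with shAhR-2, and chromosome 22 held 1.83% ± 0.16 and 1.38% ± 0.27. The caller's background level per library, which grows with depth, was 1.62 ± 0.20 in BE2C pLKO, 1.60 ± 0.17 with shAhR-1 and 3.79 ± 0.56 with shAhR-2. In Kelly it was 1.65 ± 0.35, 1.10 ± 0.44 and 2.78 ± 0.20 in the same order. The shAhR-2 libraries of both lines lay between 2.56 and 4.42, and every other library at 1.92 or below. Depth and this hairpin can therefore not be told apart in either line. The part of depth and of base composition in the share of the arm was not tested.

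Few single regions told the lines apart among the strongest peaks. Of the 498 regions 5 were found more often in Kelly (1.00%, Fisher's exact test, adjusted p below 0.05 over 19922 regions of the genome) and 0 in BE2C, against 1.66% and 2.96% of the genome, so the shares on the arm that passed were below those of the genome. Before adjustment, 63 regions had a p below 0.05 in favour of Kelly (12.7%, genome 5.58%) and 4 in favour of BE2C (0.803%, genome 7.30%; Fisher's exact test). No region had a strong peak in all 9 libraries of 1 line and in none of the other (genome 0.417% for Kelly and 0.848% for BE2C), so the 5 regions were chosen for mention after their values were seen. The region chr1:29240565-29241748 had a strong peak in 9 Kelly and 1 BE2C libraries (adjusted p = 0.0145, exact). Its fold was nevertheless 13.4, 6.49 and 11.1 in Kelly pLKO and 9.65, 9.14 and 10.7 in BE2C pLKO, so the groups overlapped in fold. The other 4 were chr1:50736998-50737787, chr1:47799066-47800438, chr1:33814929-33816222 and chr1:2343548-2344637, each with a strong peak in 7 Kelly and 0 BE2C libraries (adjusted p = 0.049, exact). Over full lists the last of them had a peak in 8 Kelly and 9 BE2C libraries. The count rose to 57 without Kelly shAhR-1 replicate 1 (49 in Kelly and 8 in BE2C), and it was 0 over the pLKO and shAhR-1 libraries alone.

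Within a line, regions of the arm left the strongest peaks with shAhR-2 more often than they entered. A region was called lost when all 3 pLKO libraries and no hairpin library had a strong peak, and gained in the reverse case, with lists shortened to 9204 peaks in Kelly and 25660 in BE2C. These are descriptions, since presence in 3 against 3 libraries cannot go below p = 0.1 in an exact test of a single region. In BE2C 64 of 1031 regions were lost with shAhR-2 (6.21%, genome 3.19%) and 7 gained (0.679%, genome 3.59%). In Kelly 20 of 475 were lost (4.21%, genome 2.9%) and 1 gained (0.211%, genome 2.84%). With shAhR-1 the shares were nearer to the genome, though gains in Kelly stayed well below it. In BE2C 21 were lost (2.04%, genome 1.68%) and 12 gained (1.16%, genome 1.36%). In Kelly 8 were lost (1.68%, genome 1.61%) and 1 gained (0.211%, genome 1.33%). With both hairpins 16 were lost (1.55%, genome 0.997%) and 2 gained (0.194%, genome 0.466%) in BE2C. In Kelly 3 were lost with both (0.632%, genome 0.519%) and 0 gained (genome 0.233%). Losses in BE2C with shAhR-2 were spread over all 14 windows, with 11 in each of the windows from 15 to 20 and from 25 to 30 Mb. The counts rest on the libraries present: without Kelly shAhR-1 replicate 1 the regions changed in Kelly, in either direction, numbered 52 with shAhR-1 in place of 9, 65 with shAhR-2 in place of 21 and 18 with both hairpins in place of 3. Without BE2C pLKO replicate 3 those changed in BE2C with shAhR-2 numbered 110 in place of 71.

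Most of these losses were of rank and not of the peak. In BE2C 61 of the 64 regions lost with shAhR-2, and in Kelly 18 of the 20, still had a weaker peak in all 3 shAhR-2 libraries. With full lists the balance was the reverse: 212 of 2126 regions were gained and 9 lost in BE2C (9.97% and 0.423%, genome 13.5% and 0.16%), and 173 of 2178 gained and 13 lost in Kelly (7.94% and 0.597%, genome 12.1% and 0.217%). The share gained was below that of the genome and the share lost above it in both lines.

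The regions with the highest folds in each set show the range of patterns. The region chr1:25429594-25430276, lost with both hairpins in Kelly, had folds of 11.1, 7.02 and 9.18 in Kelly pLKO. With shAhR-1 it had no peak in replicate 1, whose list holds no weaker peaks, and folds of 4.71 and 5.61 in the others. With shAhR-2 it had no peak in any Kelly library. In BE2C all 3 pLKO libraries (5.06, 5.75 and 6.59) and all 3 shAhR-2 libraries (7.07, 5.70 and 6.86) had a weaker peak there, so the absence with shAhR-2 was seen in Kelly and not in BE2C. The region chr1:48269714-48270261 had folds of 10.5, 6.19 and 11.7 in Kelly pLKO and 4.60, 3.87 and 3.48 in Kelly shAhR-2. In BE2C its folds were 6.08, 9.19 and 9.20 with pLKO and 5.69, 6.73 and 6.20 with shAhR-2. It was lower with shAhR-2 than with pLKO in every Kelly library, while the BE2C groups overlapped. The median fold of the whole Kelly list was lower with shAhR-2 too, at 4.83 against 6.22 with pLKO. The region chr1:17076500-17077395 had folds of 10.7, 5.47 and 10.3 in Kelly pLKO and of 5.96, 6.28 and 7.76 in Kelly shAhR-2, which overlap, and lies in the duplicated stretch near 17 Mb.

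In BE2C the region chr1:17878374-17878831 had folds of 6.13, 7.86 and 8.5 with pLKO, no peak in any shAhR-1 library, and 6.37, 4.18 and 4.24 with shAhR-2. The region chr1:16212351-16213260 had 6.77, 10.8 and 6.65 with pLKO, a peak in 1 shAhR-1 library (6.43), and 7.05, 5.94 and 5.35 with shAhR-2. The region chr1:7177561-7178148 had 6.25, 8.42 and 9.36 with pLKO, a peak in 1 shAhR-1 library (5.84), and 5.46, 6.47 and 5.70 with shAhR-2. All 3 kept a weaker peak in every shAhR-2 library of BE2C, and the folds of pLKO and shAhR-2 overlapped. The BE2C lists held 45023, 27140 and 25660 peaks with shAhR-1, and 75798 to 81637 with shAhR-2. Replicate 3 of shAhR-1 set the cut, so its list holds no weaker peaks. Whether a weaker peak remained can therefore not be compared between the hairpins. The region chr1:12804829-12806098, lost with shAhR-2 alone, was called in BE2C and in no Kelly library, even in the full lists. Its folds were 7.45, 9.13 and 9.61 with pLKO, 9.57, 7.67 and 6.22 with shAhR-1 and 5.46, 5.94 and 4.98 with shAhR-2, with every shAhR-2 library below every other. The region was picked for leaving the strongest peaks, and its folds are not corrected for the whole list. The median fold of the whole BE2C list was also lowest with shAhR-2, at 4.83 against 6.07 with pLKO and 5.73 with shAhR-1.

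**Figure D5:**
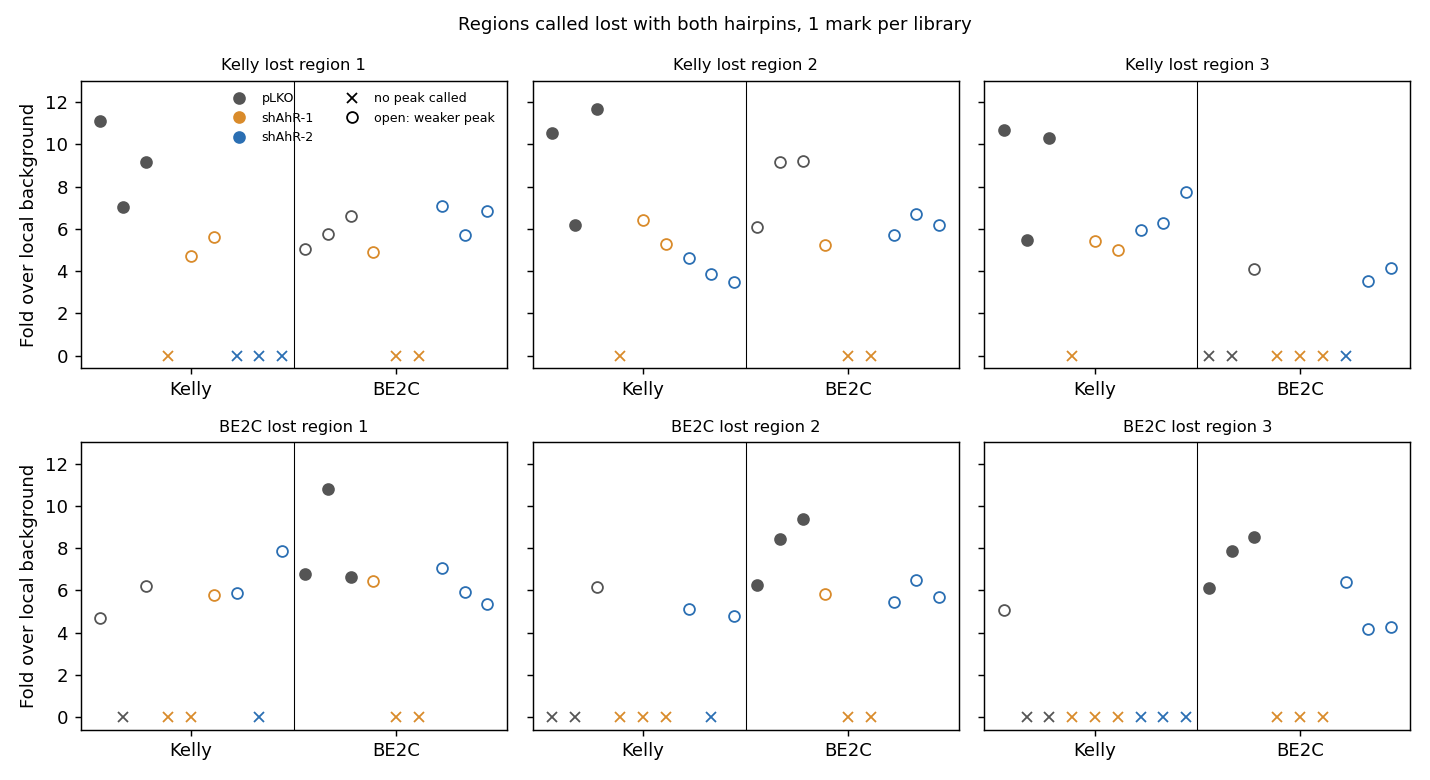
Fold over the local background (y axis) in the 18 libraries (x axis, Kelly then BE2C, coloured by condition) at the 3 regions with the highest folds that were lost with both hairpins in Kelly (top: the regions described in the text, in the same order) and in BE2C (bottom: the regions starting at 16212351, 7177561 and 17878374). Filled points are peaks among the strongest of the line, open points weaker peaks, and crosses mark libraries with no peak called; open points in most hairpin libraries show that a weaker peak was often still called.

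Gains among the strongest peaks were few. Of the 7 regions gained in BE2C with shAhR-2, 5 lay beyond 55 Mb, a limit picked from these counts. How many of all 1031 regions lay there was not counted. The region chr1:521486-522123 had folds of 11.6, 12.3 and 10.5 in the BE2C shAhR-2 libraries and of 9.20 and 12.4 in Kelly shAhR-2 replicates 1 and 3, and no peak in the other 13 libraries. The region chr1:67966062-67966625 had folds of 10.9, 9.39 and 8.48 in BE2C shAhR-2 and no peak in the other 6 BE2C libraries, but 5 of the 9 Kelly libraries had one. The 2 regions gained with both hairpins in BE2C were chr1:57043987-57045442 and chr1:68721863-68723064. The former had folds of 6.14, 5.82 and 4.98 with shAhR-1 and 7.30, 7.27 and 7.33 with shAhR-2, against no peak, 3.99 and 4.55 with pLKO. The latter had 11.6, 4.73 and 4.15 with shAhR-1 and 8.20, 10.2 and 8.82 with shAhR-2, against no peak, 4.01 and 5.95 with pLKO. The first of these regions was higher in every hairpin library than in any pLKO library, and the second was not. With shAhR-1 alone, chr1:20586163-20586810 had folds of 7.86, 5.10 and 5.04, against 3.38, no peak and 4.20 with pLKO, and no peak in any Kelly library.

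In the pLKO libraries the peaks of the arm were about as wide as others. Their median width was 499 ± 86 bases (SD, n = 3) in Kelly pLKO, against 506 ± 52 in the whole lists, and 483 ± 54 against 510 ± 54 in BE2C pLKO. In shAhR-2 the peaks of the arm were wider than those of their lists, with 560 ± 27 against 494 ± 23 in Kelly and 611 ± 32 against 565 ± 14 in BE2C. At the limit of 70 Mb, in Kelly pLKO replicate 1 the last peak inside (chr1:69781246-69782236) had a fold of 12.4 and the first outside (chr1:70017344-70017757) 9.68. In BE2C pLKO replicate 1 these were 3.58 and 7.57. The weakest peaks on the arm had a -log10 q between 1.31 and 1.66 across the libraries.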

How the data were processed

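Each of the 18 files is a list of peaks from 1 ATAC-seq library (50K cells, per the labels' protocols). CASAVA 1.8.2, Trimmomatic 0.33, BWA 0.7.17, MACS2 2.1.0, deepTools 3.1.3 and the build hg19 are named in the submitters' processing notes. How each was set, whether duplicates or mitochondrial reads were removed, and whether cut sites were shifted is not given in the sources used here. The deposited values of each peak are a score, a fold over the local background (a linear ratio), a −log10 p-value and a −log10 q-value, made by the authors' caller for 1 library at a time. A region without a peak is one where none passed the caller, not one with no reads, and read depth is not given in the lists.

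Peaks on chromosomes 1 to 22 and X were used, and between 0.197% and 0.830% of a list lay elsewhere. Lists were shortened to the 9204 strongest peaks by p-value (within a line, 9204 in Kelly and 25660 in BE2C). The share of the arm was compared by exact permutation tests on log2 values, and the share per 5 Mb window by limma 3.58.1 in R 4.3.3 on log2 values with a pseudocount of 1 peak, over windows with a mean of at least 5 peaks. Adjusted p-values are by Benjamini-Hochberg, for windows and regions over the genome. The pileup and background at a summit were solved from the fold and p-value (pseudocount 1 in the caller's fold, lowest background tried 0.5, fold of at least 1.5), assuming the caller's Poisson model, and at least 96.7% of the peaks of a library had a solution. Windows of pileup needed 10 regions. Regions are peaks merged at an overlap of at least 1 bp. Named regions are up to 5 with a peak in all 18 lists, and up to 3 gained and lost per line and hairpin set, ordered by the lowest fold; regions that differ between lines were to be present in every library of 1 line and in none of the other, which 0 were. Other list lengths, ranks, window sizes, overlaps, a replicate block and leaving out each library were tried as alternatives. Scripts (Python 3.11.15) were tested on simulated data. The arm, its windows and the lists were chosen with earlier results of these data known.

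Replicate numbers were not used as pairs: the correlation of deviations from the group means was between -0.331 and 0.0573 over 18 pairs of conditions within a line, and between -0.220 and 0.217 over 9 pairs of lines.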

Additional observations from a re-analysis of the deposited data

Results flagged for a closer look

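The change with shAhR-2 differed between Kelly and BE2C in 11 of the 14 windows by the share of the strongest 9204 peaks (limma interaction, adjusted p below 0.05, genome 14.6%). On the log2 scale, Kelly minus BE2C was 0.99 in window 1, 2.45 in window 2, 2.14 in window 3, 2.25 in window 5, 2.61 in window 6, 2.65 in window 7, 3.11 in window 8, 2.64 in window 9, 2.35 in window 10 and 1.2 in window 11, counted from the end of the chromosome. It was -0.57 in window 14, from 65 to 70 Mb, where the Kelly libraries fell and the BE2C libraries did not. Against shAhR-1 the change with shAhR-2 differed between the lines in 12 windows (genome 28.2%). In the full lists 0 of 14 windows differed for shAhR-2 against pLKO (limma, genome 6.9%), and over the whole arm the log2 difference there was -0.10 (exact permutation test, p = 0.765). That permutation test cannot decide whether the lines differ, for the reason given above. By relative pileup, 1 of 9 windows differed for shAhR-2 against shAhR-1 (limma, genome 11.7%), and 0 of 9 for shAhR-2 against pLKO. Groups of 3 libraries are too small for a search for outlying libraries.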

How the results depend on the processing

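The smaller share of the arm in BE2C than in Kelly, and with shAhR-2 than with pLKO, kept its direction and its side of the threshold in the settings tried, except with a replicate block, where shAhR-2 against pLKO was -0.98 (log2, adjusted p = 0.0625) and shAhR-2 against shAhR-1 -0.91 (adjusted p = 0.0833); the numbers do not pair the libraries. With full lists at a -log10 q of at least 5, shAhR-1 against pLKO was -0.21 (adjusted p = 0.02) and shAhR-2 against shAhR-1 -0.11 (adjusted p = 0.375), and with peaks ranked by fold the latter was -0.16 (adjusted p = 0.0533), all by exact permutation tests. The cause was not tested. Leaving out single libraries gave log2 ratios of 0.48 to 1.16 (Kelly against BE2C), -0.12 to -0.033 (shAhR-1 against pLKO), -1.04 to -0.44 (shAhR-2 against pLKO) and -0.97 to -0.40 (shAhR-2 against shAhR-1). For relative pileup the same ranges were 0.36 to 0.42, 0.068 to 0.13, -0.37 to -0.27 and -0.46 to -0.37. Kelly shAhR-1 replicate 1 sets the list length, and depth limits which weak peaks could be called.

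Windows with a different share numbered 4 (Kelly against BE2C), 6 (shAhR-2 against pLKO) and 3 (shAhR-2 against shAhR-1) at a -log10 q of at least 5, and 6 and 5 for the last pair of comparisons with peaks ranked by fold. In windows of 10 Mb they numbered 7, 6 and 6 of 7, and 0 for shAhR-1 against pLKO, which was also 0 with the replicate block. With single libraries left out they numbered 13 to 13, 0 to 2 (shAhR-1 against pLKO), 12 to 13 and 12 to 13, and windows of pileup 7 to 13. For Kelly against BE2C the sign changed from 5 to 10 Mb (-0.024 in full lists, -0.083 at the q limit), from 60 to 65 Mb (-0.26 and -0.14) and from 35 to 40 Mb (-0.019 at the q limit). 

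Regions found in 1 line numbered 40 in full lists, 26 at the q limit, 0 ranked by fold, 2 when a peak had to cover 50% of the region, 0 when all libraries of 1 line and none of the other were asked for, and 0 without the 6 shAhR-2 libraries, a setting chosen after seeing the data. Regions changed in Kelly numbered 36, 186 and 6 in full lists (shAhR-1, shAhR-2 and both), 40, 141 and 7 at the q limit, and 15 with shAhR-1 at 50% cover. In BE2C they numbered 221 with shAhR-2 and 7 with both in full lists, and 210 and 4 at the q limit. With single libraries left out, regions found in 1 line numbered 5 to 57, those changed in Kelly 9 to 52, 21 to 65 and 3 to 18, and in BE2C 33 to 57, 71 to 110 and 18 to 30. The highest counts came without Kelly shAhR-1 replicate 1 or BE2C pLKO replicate 3, or BE2C shAhR-1 replicate 1 for 57 with shAhR-1; fewer libraries make all against none easier to meet. In full lists the difference in libraries with a peak changed sign at chr1:2343548-2344637 (-1), chr1:48269714-48270261 and chr1:17076500-17077395 in Kelly (2 each), and chr1:16212351-16213260 and chr1:7177561-7178148 in BE2C (1 each). Apart from these 10 sign changes, 757 values of single windows and regions stayed on their side and 60 passed the threshold no longer, with the same direction.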
